A study of Homo sapiens with 4 samples.

Results

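The genes described here serve antigen presentation by MHC class I molecules, and they were compared between EED-knockout and wild type Daoy cells. The 9 genes were named as a set by symbol. No threshold on their measured values was used, but earlier results of these data were known when the set was chosen. The 9 are the heavy chains HLA-B, HLA-C, HLA-E and HLA-F, the light chain B2M, the peptide loading genes TAP1 and TAPBP, the immunoproteasome subunit PSMB9 and the transactivator NLRC5. They are 9 of the 58174 genes in the deposited files, and all 9 were among the 18349 genes with enough counts to be tested. Daoy is an established human medulloblastoma line. Total RNA was sequenced from 2 EED-knockout libraries and 2 wild type libraries, and no treatment, time or clone is named in the labels. EED belongs to the core of PRC2, the Polycomb complex that methylates H3K27 and silences genes. The library totals were 19022736 and 18164045 estimated counts in the EED-knockout libraries, against 19106382 and 17836112 in the wild type libraries.

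MHC class I molecules display peptides from inside the cell to CD8+ T cells. The proteasome cuts proteins into peptides, the TAP transporter carries them into the endoplasmic reticulum, and tapasin helps to load them onto a heavy chain paired with beta-2 microglobulin. Interferon gamma raises most of these genes, in part through IRF1 and NLRC5, and tumour cells can lower them and so become less visible to T cells.

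No gene passed the threshold of an adjusted p under 0.05 in edgeR's quasi-likelihood test, so 0 of the 9 genes did (background 0% of tested genes). The smallest adjusted p over all genes was 0.423. At an unadjusted p under 0.05 the same test held 1082 genes, or 5.90% of those tested. DESeq2 called 68 genes (0.371%), none of them among the 9. The counts were 0 with limma-voom and 0 with limma-trend on log2 TPM. EED itself had 340 and 490 counts in the EED-knockout libraries, against 626 and 500 counts in the wild type libraries. Its log2 fold change was -0.49 (95% interval -1.12 to 0.13, adjusted p = 0.878 in edgeR), and without the position of the lesion, which the labels leave out, the messenger level does not check the genotype. Nothing in the labels tells whether libraries of 1 genotype are separate cultures or clones. The p-values therefore cover the spread among 4 libraries, which may be technical. Of the markers listed for the line, VIM, a mesenchymal filament gene, stood at 4106 and 4071 CPM (counts scaled to library size) in the EED-knockout libraries and at 4328 and 3755 CPM in the wild type libraries, while NES, a neural progenitor gene, was low at 1.83 and 1.28 TPM in the EED-knockout libraries and 0.816 and 1.36 TPM in the wild type libraries. GLI2, PTCH1 and SMO, genes of the hedgehog pathway, each had at least 394 counts in every library. Of 8 leucocyte markers, CD3E had 0 counts in every library and CD68 held most of the summed level, which was 40.0 and 35.0 TPM (counts scaled to transcript length and library size) in the EED-knockout libraries and 21.2 and 53.1 TPM in the wild type libraries.

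The sequences just upstream of the genes' starts are shown because the shared control of class I genes is known to run through short elements there: an interferon-stimulated response element, kappa-B sites and the SXY module with its CRE-like and CCAAT boxes. RefSeq's promoter table for GRCh38.p14 matched 7 of the 9 genes; HLA-E and NLRC5 were not among them. Of the 7, 6 are printed, namely the heavy chains, B2M and the neighbours TAP1 and PSMB9, and TAPBP is described only by its matches. Each line gives the 180 bases before the start, 5′ to 3′ on the gene's own strand, with matches to the searched motifs in capitals.
HLA-B, chr6:31357180-31357359, minus strand: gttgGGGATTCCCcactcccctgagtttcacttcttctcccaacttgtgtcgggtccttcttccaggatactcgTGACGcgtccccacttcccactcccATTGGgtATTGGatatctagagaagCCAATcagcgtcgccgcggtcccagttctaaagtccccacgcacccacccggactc
HLA-C, chr6:31272093-31272272, minus strand: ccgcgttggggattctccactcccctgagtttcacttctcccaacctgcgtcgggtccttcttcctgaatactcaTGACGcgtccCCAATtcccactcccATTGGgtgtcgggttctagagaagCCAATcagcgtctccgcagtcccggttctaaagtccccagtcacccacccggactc
HLA-F, chr6:29723254-29723433, plus strand: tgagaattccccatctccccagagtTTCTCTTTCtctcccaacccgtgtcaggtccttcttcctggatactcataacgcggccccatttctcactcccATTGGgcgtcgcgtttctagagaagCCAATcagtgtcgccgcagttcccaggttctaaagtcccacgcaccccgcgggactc
B2M, chr15:44711337-44711516, plus strand: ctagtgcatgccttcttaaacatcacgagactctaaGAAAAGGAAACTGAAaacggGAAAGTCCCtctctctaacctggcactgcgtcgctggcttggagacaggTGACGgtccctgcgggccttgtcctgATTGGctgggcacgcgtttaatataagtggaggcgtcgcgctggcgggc
TAP1, chr6:32853705-32853884, minus strand: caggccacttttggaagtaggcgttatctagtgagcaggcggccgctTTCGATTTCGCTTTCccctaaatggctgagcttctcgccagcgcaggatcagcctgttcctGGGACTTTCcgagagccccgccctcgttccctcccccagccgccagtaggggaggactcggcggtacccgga
PSMB9, chr6:32854012-32854191, plus strand: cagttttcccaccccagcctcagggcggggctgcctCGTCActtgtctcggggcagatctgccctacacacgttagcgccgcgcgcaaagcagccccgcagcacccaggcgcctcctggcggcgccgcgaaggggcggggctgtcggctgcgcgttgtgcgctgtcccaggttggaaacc

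The search covered 250 bases before the start on both strands, and overlapping matches were kept. GAAANNGAA, 1 fixed form of the core of the interferon-stimulated response element, lay before B2M, HLA-F, TAP1 and TAPBP, or 4 of 7 genes. It lay before 6.88% of all 35116 windows of the same length. In B2M, TAP1 and TAPBP it occurred as an overlapping pair, and in TAPBP the pair lay within 20 bases of the start. Other forms of the element were not searched, so a gene without a match, such as HLA-B or HLA-C, may still hold one. TTCNNNGAA, the gamma-activated site, lay before 1 of the 7, at TAP1's other listed start, and before 6.57% of all windows. The kappa-B form GGGANTCCC matched HLA-B (0.772% of windows) and the form GGGACTTTC matched B2M and TAP1 (0.325%). TGACG, the core of the CRE-like box, matched B2M, HLA-B, HLA-C and PSMB9 (21.2% of windows), and CCAAT matched 6 of the 7, all but TAPBP (32.0%). HLA-B and HLA-C were 91.9% identical over the aligned windows, and HLA-F was 83.7% identical to HLA-B and 83.9% identical to HLA-C. TAP1 and PSMB9 are read away from each other, with 487 bases between their starts. A match describes letters only, since no binding or chromatin mark was measured.

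Ordered by their mean TPM over the 4 libraries, which is per length and so can be compared between genes, B2M was the most abundant (1883 to 3431 TPM). HLA-C (281.8 to 451.8 TPM) and HLA-B (191.3 to 406.8 TPM) followed, and their ranges overlapped each other. PSMB9 (110.7 to 191.2 TPM), HLA-E (81.6 to 91.3 TPM), TAPBP (59.0 to 74.4 TPM) and TAP1 (28.1 to 53.9 TPM) formed the middle of the order. HLA-F (13.7 to 24.6 TPM) and NLRC5 (9.31 to 11.2 TPM) were the least abundant. No other neighbours in this order had ranges that overlapped, although the lowest HLA-B value and the highest PSMB9 value nearly met.

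Among the 9 genes, those that stood lowest against wild type by fold change were HLA-B, B2M and HLA-C. In 5 of the 9 genes both EED-knockout libraries lay below both wild type libraries in CPM, against 18.0% of all tested genes, and in 0 of 9 both lay above (17.8%). The 5 were HLA-B, HLA-C, HLA-E, B2M and TAPBP. In the other 4 the groups overlapped, as they did in 64.2% of all tested genes. HLA-B and B2M had an unadjusted p under 0.05 in the lower direction, 2 of 9 genes against 3.05% of all tested genes, and none had one in the higher direction (2.85%). The size of these 2 differences rests on single libraries. The log2 fold change of HLA-B was -1.07 without EED-knockout library 2 and -0.45 without EED-knockout library 1. That of B2M was -0.76 and -0.44 in the same order. With the replicate block, 1 of the 9 genes had an unadjusted p under 0.05 in edgeR, as did 768 of all 18349 tested genes. The median log2 fold change of the 9 genes was -0.23, against 0.01 over all tested genes. The genes share a pathway, and 7 of them share the short arm of chromosome 6, so they are not independent replicates of 1 change. Because the set was chosen with earlier results known, its counts beside the shares of all tested genes are a description only.

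**Figure D1:**
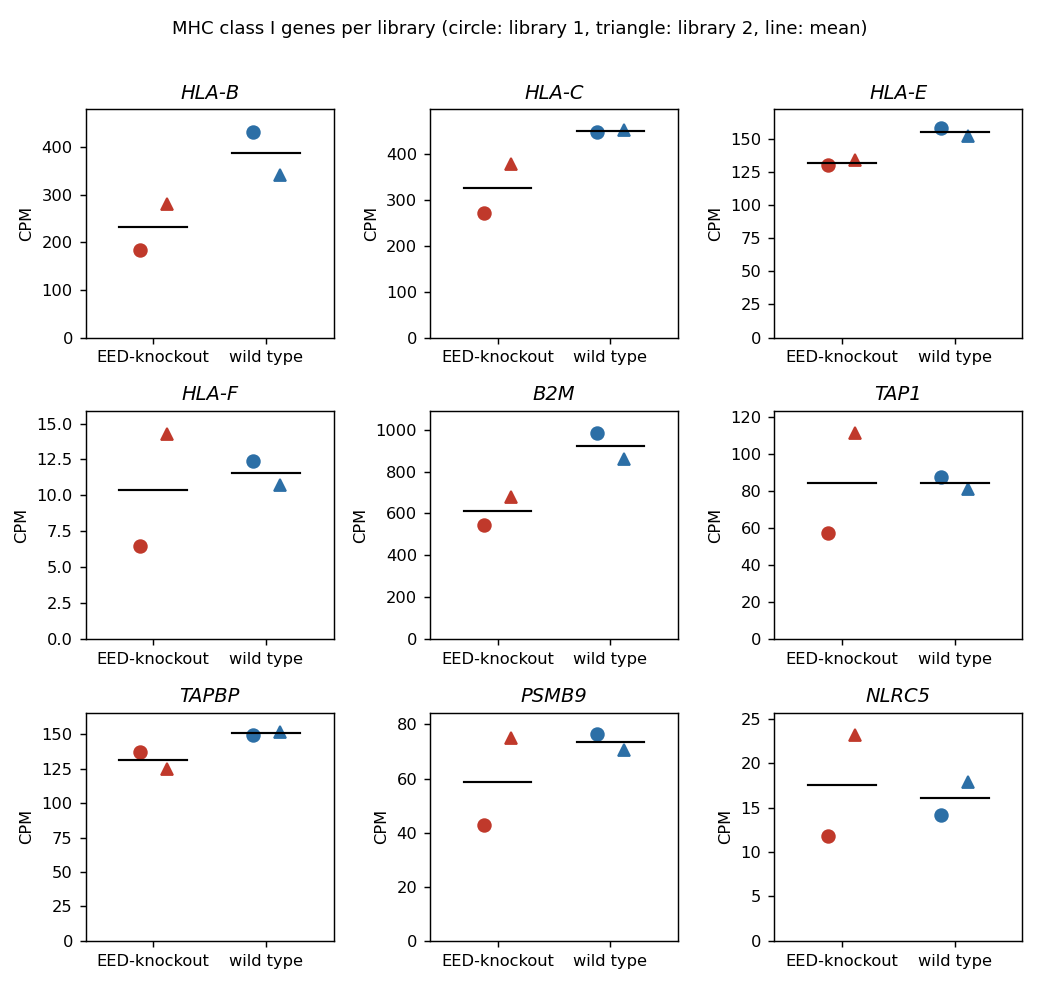
CPM of the 9 genes in each library, with a separate linear axis from 0 for each gene; red marks are the EED-knockout libraries, blue marks the wild type libraries, circles library 1, triangles library 2 and lines the mean of 2. EED-knockout library 1 lies below both wild type libraries in all 9 panels, while library 2 lies above both for HLA-F, TAP1 and NLRC5.

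HLA-B (ENSG00000234745; chromosome 6, 31269491 to 31357188, minus strand, GRCh38) encodes a classical heavy chain that presents peptides to CD8+ T cells. It had 183.6 and 281.2 CPM in the EED-knockout libraries, against 431.0 and 341.5 CPM in the wild type libraries. The groups did not overlap, and the EED-knockout library 1 and the wild type library 1 were the extremes. The mean was 232.4 ± 69.0 CPM in EED-knockout and 386.3 ± 63.3 CPM in wild type (SD, n = 2 each). The log2 fold change was -0.73 (SE 0.26, 95% interval -1.35 to -0.12), with an unadjusted p of 0.0263 and an adjusted p of 0.808 in edgeR. This was the largest difference among the 9. In bulk RNA, fewer cells with the transcript and less transcript per cell cannot be told apart.

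HLA-C (ENSG00000204525; chromosome 6, 31268749 to 31272130, minus strand), the heavy chain that also serves as a main ligand of KIR receptors on natural killer cells, had 272.1 and 379.5 CPM in the EED-knockout libraries, against 447.7 and 452.1 CPM in the wild type libraries. The groups did not overlap, and the wild type libraries lay close together while the EED-knockout libraries lay apart. The log2 fold change was -0.47 (SE 0.22, 95% interval -0.99 to 0.06, adjusted p = 0.857 in edgeR). The values of the heavy chains carry an uncertainty that replicates do not show, because kallisto divides fragments between alike sequences by a model. Of the stretches of 31 bases in the most abundant transcript, 15.6% of those of HLA-B and 20.2% of those of HLA-C also occurred in another gene, most often in each other, and the annotated span of HLA-B runs over HLA-C. The sum of these 4 heavy chains, which fragments moved among them would leave alone, was 568.4 and 785.2 TPM in the EED-knockout libraries, against 930.5 and 907.2 TPM in the wild type libraries.

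HLA-E (ENSG00000204592; chromosome 6, 30489467 to 30494205, plus strand) is a non-classical chain that presents leader peptides of other class I chains to the NKG2A receptor of natural killer cells. It had 130.3 and 134.1 CPM in the EED-knockout libraries and 158.3 and 152.2 CPM in the wild type libraries. The EED-knockout libraries were both below the wild type libraries, by a small step, and unlike the classical chains they agreed closely with each other. Its log2 fold change was -0.23 (SE 0.18, 95% interval -0.65 to 0.19, adjusted p = 0.898 in edgeR). As a share of the heavy chain TPM, HLA-E was 14.3% and 10.7% in the EED-knockout libraries and 9.58% and 10.1% in the wild type libraries, and HLA-B was 33.7% and 37.2% against 43.7% and 38.3%. In both shares EED-knockout library 2 lay nearer to wild type than library 1 did.

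HLA-F (ENSG00000204642; chromosome 6, 29722775 to 29738528, plus strand), a non-classical chain that can reach the surface without peptide, had 6.48 and 14.3 CPM in the EED-knockout libraries, against 12.4 and 10.7 CPM in the wild type libraries. EED-knockout library 1 was the lowest of the 4 and library 2 the highest, so the groups overlapped. EdgeR gave a log2 fold change of -0.15 (SE 0.40, 95% interval -1.10 to 0.80, adjusted p = 0.98). HLA-F-AS1 lies on the opposite strand at a mean of 2.69 CPM, and no label or header says whether strand was used in counting.

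B2M (ENSG00000166710; chromosome 15, 44711487 to 44718877, plus strand), the light chain without which most heavy chains do not reach the surface, had 546.7 and 678.6 CPM in the EED-knockout libraries, against 985.8 and 861.2 CPM in the wild type libraries. The groups did not overlap, and the highest EED-knockout library lay well under the lowest wild type library. The mean was 612.6 ± 93.3 CPM in EED-knockout and 923.5 ± 88.1 CPM in wild type (SD, n = 2 each). Its log2 fold change was -0.59 (SE 0.21, 95% interval -1.09 to -0.09), with an unadjusted p of 0.0265 and an adjusted p of 0.808 in edgeR. Of the 9 genes it is 1 of 2 outside chromosome 6, and none of the 31-base stretches of its most abundant transcript occurred in another gene. Set against the heavy chains, B2M TPM was 3.31 and 3.07 times their sum in the EED-knockout libraries and 3.69 and 3.55 times in the wild type libraries.

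**Figure D2:**
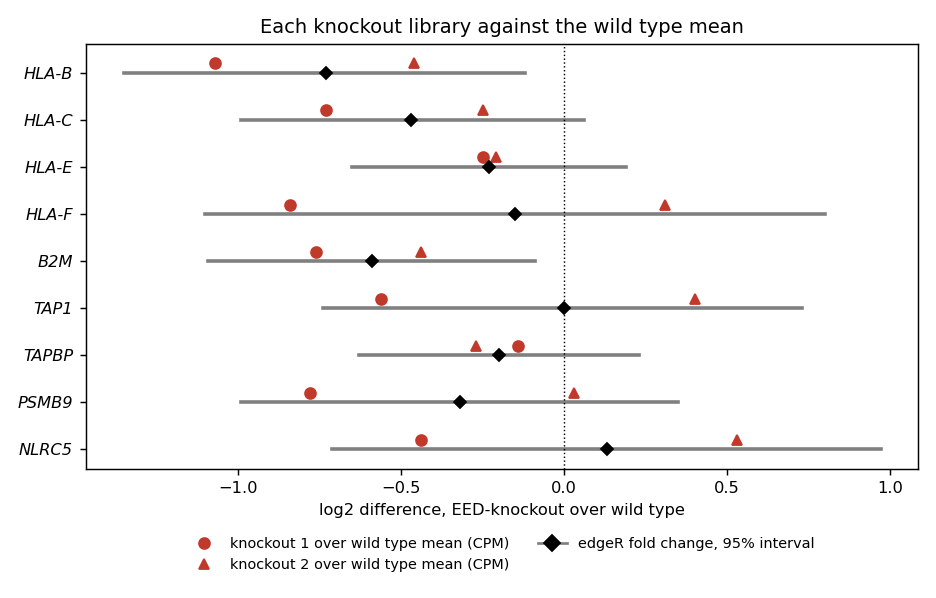
Log2 difference of EED-knockout over wild type for each gene, with circles for EED-knockout library 1 and triangles for library 2 over the wild type mean in CPM, and diamonds with bars for the edgeR fold change and its 95% interval. The intervals of HLA-B and B2M lie below 0 before adjustment, and the circles lie more than 0.5 below the triangles for 5 genes.

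The annotated transcripts of B2M did not all point the same way. B2M-012, a processed transcript with no coding frame in the annotation, had 736 and 656 estimated counts in the EED-knockout libraries, against 3964 and 2750 in the wild type libraries. B2M-007, annotated as a target of nonsense-mediated decay, had 1301 and 1778 counts in the EED-knockout libraries and 3829 and 3302 in the wild type libraries. B2M-013, the most abundant and of the same annotated class, had 4486 and 6037 counts in the EED-knockout libraries and 7741 and 7205 in the wild type libraries. These 3, named as the most abundant, were each lower in both EED-knockout libraries. The protein-coding B2M-201, picked after its values were seen, went the other way, with 3007 and 3365 counts in the EED-knockout libraries and 1576 and 1489 in the wild type libraries. Protein-coding transcripts together made up 21.3% and 18.9% of the gene's TPM in the EED-knockout libraries and 5.86% and 6.55% in the wild type libraries. B2M-012 was also left out after its values were seen. The gene then had 9643 and 12044 counts in the EED-knockout libraries and 13945 and 12823 in the wild type libraries. The groups still did not overlap, but the difference was smaller. In TPM the EED-knockout libraries had 1707 and 2250 without B2M-012, against 2452 and 2467 in wild type. With it they had 1883 and 2410, against 3431 and 3217 in wild type. These are kallisto's divisions of fragments among transcripts with shared exons, and no test was made of them. Effective length, which kallisto uses in that division, also differed between the libraries: the median gap between a transcript's length and its effective length, over 46614 transcripts longer than 2000 bases, was 276.6 and 277.3 bases in the EED-knockout libraries, against 257.9 and 252.0 bases in the wild type libraries. The effective length of B2M-012 was 303.8 and 302.9 bases in the EED-knockout libraries and 280.3 and 279.3 bases in the wild type libraries, while that of B2M-013 was 309.0 and 307.5 bases against 332.6 and 335.9 bases, so the transcripts differed in opposite directions. The median gap, which was not limited to B2M, was larger in both EED-knockout libraries than in both wild type libraries, so it ran with genotype. The part of effective length in the B2M transcript values, and in the values of the other genes, was not tested.

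**Figure D3:**
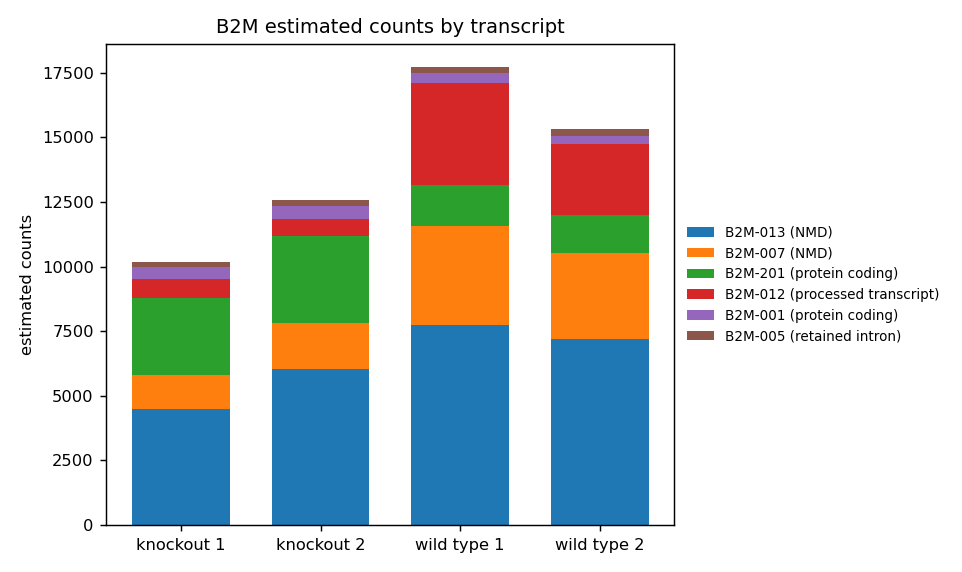
Estimated counts of the 6 most abundant B2M transcripts, stacked on a linear axis from 0, in EED-knockout libraries 1 and 2 and wild type libraries 1 and 2, coloured by transcript with the annotated class in the legend. The red band (B2M-012) is 736 and 656 counts in the EED-knockout bars against 3964 and 2750 in the wild type bars, while the green band (B2M-201) is 3007 and 3365 against 1576 and 1489.

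HLA-B, HLA-C, TAP1 and PSMB9 were each carried by 1 transcript that held nearly all of the gene's TPM in every library. HLA-B-001 held 94.4% and 91.9% of the gene's TPM in the EED-knockout libraries and 94.5% and 93.8% in the wild type libraries. HLA-C-001 held at least 95.7% in every library, TAP1-001 at least 96.2% and PSMB9-001 at least 96.5%. HLA-E-001 held between 88.4% and 92.4%, and TAPBP-001 between 63.6% and 74.3%. HLA-F and NLRC5 were spread over more transcripts. Protein-coding transcripts of HLA-F made up 55.0% and 57.7% of its TPM in the EED-knockout libraries and 69.0% and 75.3% in the wild type libraries, from between 85 and 202 counts a library.

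TAP1 (ENSG00000168394; chromosome 6, 32845209 to 32853978, minus strand), a subunit of the peptide transporter, had 57.4 and 111.6 CPM in the EED-knockout libraries, against 87.8 and 81.5 CPM in the wild type libraries. The EED-knockout libraries straddled the wild type pair, and their means were alike, at 84.5 ± 38.3 CPM in EED-knockout and 84.7 ± 4.48 CPM in wild type (SD, n = 2 each). Its log2 fold change was -0.00 with a 95% interval of -0.74 to 0.73 (adjusted p = 0.999 in edgeR), which leaves room for a difference in either direction. Its partner subunit TAP2 had 129.5 and 160.6 CPM in the EED-knockout libraries, against 179.8 and 167.2 CPM in the wild type libraries, a log2 fold change of -0.26 (adjusted p = 0.898). The ratio of TAP1 to TAP2 in TPM was 0.412 and 0.808 in the EED-knockout libraries and 0.537 and 0.512 in the wild type libraries, so it differed more within EED-knockout than between genotypes.

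PSMB9 (ENSG00000240065; chromosome 6, 32844136 to 32859585, plus strand), the interferon-induced proteasome subunit that takes the place of PSMB6, had 42.7 and 75.0 CPM in the EED-knockout libraries, against 76.4 and 70.4 CPM in the wild type libraries. EED-knockout library 1 was far below the other 3, and library 2 lay between the wild type libraries. EdgeR gave a log2 fold change of -0.32 (SE 0.28, 95% interval -0.99 to 0.35, adjusted p = 0.913). PSMB8, the subunit that takes the place of PSMB5, showed the same order with 42.8 and 85.2 CPM in the EED-knockout libraries, against 88.8 and 82.7 CPM in the wild type libraries (log2 fold change -0.42, adjusted p = 0.895). The ratio of PSMB9 to PSMB6 in TPM was 0.262 and 0.456 in the EED-knockout libraries and 0.623 and 0.436 in the wild type libraries, and that of PSMB8 to PSMB5 was 0.230 and 0.393 against 0.420 and 0.449. The annotated span of PSMB9 overlaps TAP1 and PSMB8 on the opposite strand. Without strand, reads of these genes that fall in the overlap cannot be told apart.

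TAPBP (ENSG00000231925; chromosome 6, 33299694 to 33314387, minus strand) encodes tapasin, which holds empty class I molecules at the transporter. It had 137.0 and 124.8 CPM in the EED-knockout libraries and 149.3 and 151.9 CPM in the wild type libraries. The groups did not overlap in CPM but did in TPM, with 68.4 and 59.0 TPM in the EED-knockout libraries and 62.6 and 74.4 TPM in the wild type libraries. By TPM, 4 of the 9 genes had both EED-knockout libraries below both wild type libraries, against 12.9% of all tested genes. The log2 fold change of TAPBP was -0.20 (SE 0.18, 95% interval -0.63 to 0.23, adjusted p = 0.914 in edgeR). TAPBP was the exception among the 9 in that EED-knockout library 1 was not the lowest of the 4 libraries.

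NLRC5 (ENSG00000140853; chromosome 16, 56989485 to 57083531, plus strand) encodes the transactivator that binds the SXY module of class I promoters through RFX proteins. It had 11.8 and 23.2 CPM in the EED-knockout libraries, against 14.2 and 17.9 CPM in the wild type libraries. The EED-knockout libraries were the lowest and the highest of the 4, and the log2 fold change was 0.13 (SE 0.36, 95% interval -0.71 to 0.97, adjusted p = 0.983 in edgeR). Its coding transcripts summed to 2.45 and 4.83 TPM in the EED-knockout libraries and to 1.84 and 4.82 TPM in the wild type libraries. Short non-coding transcripts with few counts made up much of the gene's TPM, so its TPM rests on few fragments.

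Across the 9 genes the EED-knockout libraries stood apart from each other. Library 1 lay below both wild type libraries in 9 of 9 genes, against 38.7% of all tested genes, and was the lowest of the 4 libraries in 8 of 9, against 30.9%. Library 1 lay below and library 2 above both wild type libraries in 3 of 9, HLA-F, TAP1 and NLRC5, against 10.4%. Library 2 exceeded library 1 by over 0.5 on the log2 scale in 5 of 9, against 18.5%. The median log2 difference from the wild type mean was -0.73 in library 1 and -0.21 in library 2, against -0.01 in each over all tested genes.

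In some chromosome arms, 6p among them, the median level was also lower in EED-knockout library 1 than in library 2. Each arm's median was taken over log2 CPM, centred on the 4 libraries, less the library's median over all tested genes. That of 6p left out the MHC region and covered 353 genes. The median of 6p was -0.25 and 0.06 in the EED-knockout libraries and 0.14 and 0.03 in the wild type libraries. For 6q, which holds none of the 9 genes, it was -0.29 and 0.10 in the EED-knockout libraries and 0.20 and 0.02 in the wild type libraries. For chromosome 15, which holds B2M, it was -0.13 and 0.06 in the EED-knockout libraries and 0.06 and 0.01 in the wild type libraries. The median of 16q, which holds NLRC5, ran the other way. It was 0.18 and -0.07 in the EED-knockout libraries and -0.13 and -0.02 in the wild type libraries. After each library's arm median was taken off, the log2 fold change was -0.57 for HLA-B, -0.31 for HLA-C, -0.05 for HLA-E and -0.01 for TAPBP, and it was -0.53 for B2M. It was -0.02 for HLA-F, -0.17 for PSMB9, 0.13 for TAP1 and 0.04 for NLRC5, and the median of the 9 genes was -0.05. From HLA-F to TAPBP (chromosome 6, 29722775 to 33314387), 100 other protein-coding genes outside the lists were tested. Their median log2 difference from wild type was -0.28 in library 1 and 0.04 in library 2, their median log2 fold change was -0.10, and both EED-knockout libraries lay below wild type in 22 of the 100 and above in 7, against 18.0% and 17.8% of all tested genes. The copy number of these regions was not measured, and its part in the values was not tested.

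The rest of the pathway was described from lists of 60 further genes by role, 57 of which were tested. None passed at an adjusted p under 0.05 in edgeR or in DESeq2. At an unadjusted p under 0.05, 6 were lower and 0 were higher in EED-knockout, or 6 of 57 against 3.05% and 0 of 57 against 2.85% of all tested genes. Their median log2 fold change was -0.10, against 0.01 over all genes, and both EED-knockout libraries lay below wild type in 15 of 57 and above in 9 of 57, against 18.0% and 17.8% of all tested genes.

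In the list of the immunoproteasome and its activator, all 6 genes (PSMB8, PSMB10, PSME1, PSME2, PSME3 and the assembly factor POMP) had a fold change below 0, with a median of -0.39. Over all tested genes, 9003 of 18349 had a fold change below 0. The list's median log2 difference from the wild type mean was -0.60 in EED-knockout library 1 and -0.24 in library 2. PSME1, a subunit of the PA28 activator that opens the proteasome's gate, had 77.5 and 96.5 CPM in the EED-knockout libraries, against 146.2 and 122.0 CPM in the wild type libraries (log2 fold change -0.62, unadjusted p 0.0204, adjusted p 0.799 in edgeR). PSME2, its partner subunit, had 70.2 and 92.2 CPM in the EED-knockout libraries, against 125.6 and 111.2 CPM in the wild type libraries (log2 fold change -0.54, unadjusted p 0.0373, adjusted p 0.81 in edgeR). PSME1 and PSME2 both lie on chromosome 14, whose median was -0.04 and 0.00 in the EED-knockout libraries and 0.06 and -0.04 in the wild type libraries. Each overlaps another gene on the opposite strand, EMC9 for PSME1 and RNF31 for PSME2. PSMB10 had 24.9 and 31.5 CPM in the EED-knockout libraries and 33.7 and 34.8 CPM in the wild type libraries (log2 fold change -0.28, adjusted p = 0.899). The constitutive subunits that these replace stood elsewhere: the log2 fold change was 0.00 for PSMB5, 0.21 for PSMB6 and -0.10 for PSMB7, and no difference between the lists was tested.

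Peptide trimming enzymes held the smallest unadjusted p of the pathway. ERAP2, an aminopeptidase of the endoplasmic reticulum, had 152.6 and 190.9 CPM in the EED-knockout libraries, against 309.5 and 280.4 CPM in the wild type libraries. The groups lay far apart, with a log2 fold change of -0.78 (SE 0.20, 95% interval -1.26 to -0.30), an unadjusted p of 0.00637 and an adjusted p of 0.799 in edgeR. The adjusted p in DESeq2 was 0.0983. Its neighbour ERAP1, which trims peptides to the length that fits the class I groove, had 46.7 and 79.8 CPM in the EED-knockout libraries, against 115.5 and 101.9 CPM in the wild type libraries (log2 fold change -0.78, unadjusted p 0.026, adjusted p 0.808 in edgeR). ERAP1 overlaps CAST on the opposite strand, and its groups overlapped in TPM, with 14.8 and 37.0 TPM in the EED-knockout libraries and 37.0 and 43.8 TPM in the wild type libraries. Both genes lie on 5q, whose arm median was -0.22 and -0.11 in the EED-knockout libraries and 0.28 and 0.08 in the wild type libraries. With the arm median taken off, the log2 fold change was -0.44 for ERAP1 and -0.44 for ERAP2. The list as a whole had 2 of 8 genes higher and 6 lower by fold change, with a median of -0.17.

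**Figure D4:**
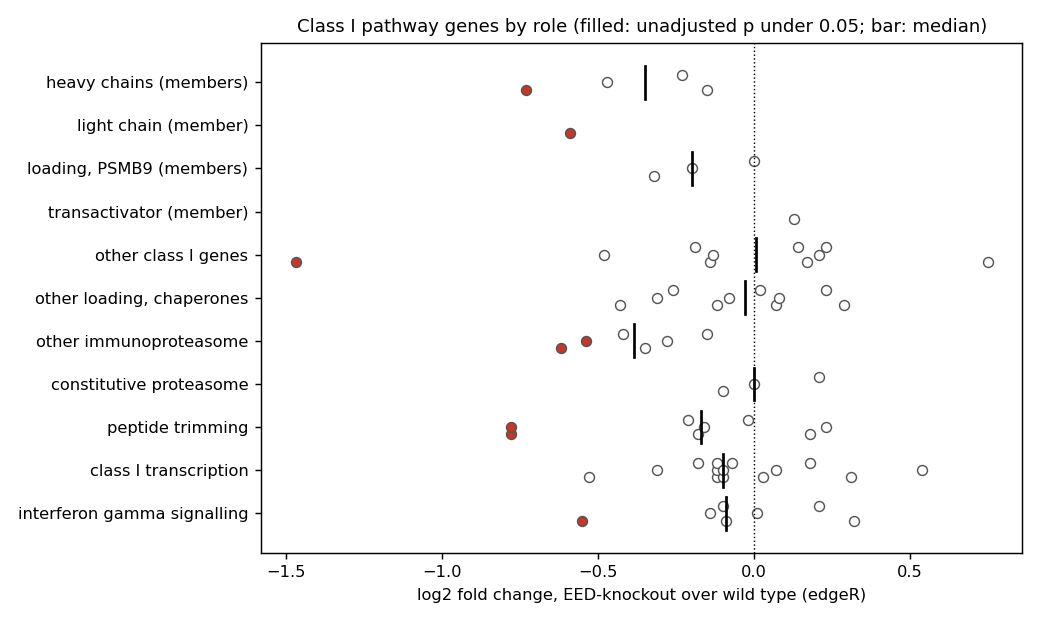
Log2 fold change of EED-knockout over wild type in edgeR for each tested gene of the class I pathway, in rows by role; filled points have an unadjusted p under 0.05 and bars are the row medians. All filled points lie below 0, among them HLA-B at -0.73, B2M at -0.59 and ERAP2 at -0.78, and no point passed an adjusted p under 0.05.

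Among the other class I genes, RAET1E, a ligand of the activating receptor NKG2D, had 24 and 52 counts in the EED-knockout libraries, against 106 and 98 counts in the wild type libraries (log2 fold change -1.47, unadjusted p 0.0173, adjusted p 0.799 in edgeR). An antisense gene, RAET1E-AS1, lies over it at a higher mean of 6.74 CPM. The placental chain HLA-G had 1 and 0 counts in the EED-knockout libraries and 0 and 2 counts in the wild type libraries, under the floor of 3 counts in each. Of the 10 genes tested in this list, 5 had a fold change above 0 and 5 below, with a median of 0.00.

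Loading chaperones showed no common direction, with 5 of 10 genes above 0, 5 below and a median of -0.03. Calreticulin (CALR) had 914.0 and 982.4 CPM in the EED-knockout libraries and 901.4 and 902.2 CPM in the wild type libraries, with a fold change of 0.07 on the log2 scale (95% interval -0.38 to 0.52). Calnexin (CANX), on 5q, had 980.9 and 852.8 CPM in the EED-knockout libraries and 1219 and 1052 CPM in the wild type libraries, and its log2 fold change of -0.31, with a 95% interval of -0.79 to 0.17, was 0.05 with the arm median taken off. The log2 fold change was 0.02 for the disulfide isomerase PDIA3 and -0.08 for TAPBPL, a peptide editor related to tapasin.

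Of 14 genes of class I transcription, 5 had a fold change above 0 and 9 below, 0 had an unadjusted p under 0.05, and the median log2 fold change was -0.10. IRF1, an interferon-induced activator of class I genes, had 74.3 and 87.2 CPM in the EED-knockout libraries, against 96.3 and 104.5 CPM in the wild type libraries (log2 fold change -0.31, adjusted p = 0.881 in edgeR). It too lies on 5q, and its value was 0.02 with the arm median taken off. RFX5, the DNA-binding partner of NLRC5, had 48.3 and 77.6 CPM in the EED-knockout libraries and 67.1 and 69.7 CPM in the wild type libraries, with library 1 of EED-knockout the lowest and library 2 the highest, as for TAP1. CIITA, the class II transactivator, was little expressed, with 57 and 58 counts in the EED-knockout libraries and 51 and 25 counts in the wild type libraries. IFNGR2, a chain of the interferon gamma receptor, had 89.5 and 65.0 CPM in the EED-knockout libraries, against 119.2 and 107.4 CPM in the wild type libraries (log2 fold change -0.55, unadjusted p 0.0408, adjusted p 0.826 in edgeR). It overlaps TMEM50B on the opposite strand and lies on chromosome 21, whose median was -0.03 and -0.34 in the EED-knockout libraries and 0.21 and 0.14 in the wild type libraries; with that median taken off, its value was -0.21.

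The mean profile of the 9 genes, as log2 CPM centred over the libraries, was -0.45 and 0.13 in the EED-knockout libraries and 0.20 and 0.13 in the wild type libraries. Among 10698 other protein-coding genes with a mean of at least 5 TPM, the nearest profiles by Euclidean distance over the 4 libraries were those of SCNM1 (0.0256), LAMTOR2 (0.0379), MPC2 (0.0439), WDR55 (0.0473) and ACYP1 (0.0507). SCNM1, a splicing factor gene, had 69.0 and 103.1 TPM in the EED-knockout libraries, against 98.5 and 97.7 TPM in the wild type libraries. All 5 lay nearer to the mean profile than any of the 9 genes did, the nearest of which was PSMB9 at 0.176. The 5 were picked as the nearest of 10698 genes, so that outcome was favoured by the choice and does not measure how alike the 9 genes are. With 4 libraries, many genes can share a profile, and the likeness is a description of these libraries.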

How the data were processed

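RNA-seq of total RNA from Daoy cells was compared between 2 EED-knockout and 2 wild type libraries, grouped by the labels. RNA was taken up in TRIZOL and cleaned on RNeasy columns before an Illumina RNA-seq kit was used, per the labels' protocols. The deposited estimated counts and the deposited TPM values are kallisto 0.43.1 output per transcript for the build hg38, per the submitters' processing notes. No label or header names the strand setting, the annotation release or other run options. Fragments that match several transcripts are shared out by kallisto's model, which makes families such as HLA, and overlapping genes, less certain.

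Values of 199324 transcripts were summed to 58174 genes by identifier, X and Y copies of pseudoautosomal genes together, and the sums of estimated counts were rounded to whole numbers. Positions came from GENCODE 29 (57836 genes). The filterByExpr filter (minimum count 10, minimum total 15) left 18349 genes. The test was edgeR 4.0.16's quasi-likelihood F test in R 4.3.3, with TMM factors and no covariate, two-sided, with Benjamini-Hochberg adjustment over all tested genes and a threshold of 0.05. Fold changes run EED-knockout over wild type, with 95% intervals from that fit. A floor of 3 counts stood for 0.158 to 0.166 CPM and covers counting error only. An exact permutation test of 2 against 2 libraries cannot go below p = 0.333 and was not used. The fit was checked on simulated data.

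The genes and lists were chosen with earlier results of these data known. Named were the 9 genes, EED, 20 fixed pathway genes, every listed gene at an unadjusted p under 0.05, up to 3 transcripts a gene by mean TPM, and the 5 nearest profiles. Of the genes this rule selected, 2 are not reported here. Alternatives were other size factors, no filter, DESeq2 1.42.0, limma 3.58.1 (limma-voom, and its trend test on log2 TPM plus a pseudocount of 1 or 0.1), the replicate number as a block, arm medians taken off, and each library left out.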

Additional observations from a re-analysis of the deposited data

How the results depend on the processing

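Under the 13 alternatives, none of the 9 genes reached an adjusted p under 0.05; the smallest was 0.129, for HLA-B. HLA-B, HLA-C, HLA-E, B2M and TAPBP were below 0 under all 13, with HLA-B between -1.07 and -0.45 and B2M between -0.76 and -0.44 on the log2 scale. HLA-F, TAP1, PSMB9 and NLRC5 took either sign, HLA-F from -0.83 to 0.32, TAP1 from -0.56 to 0.40, PSMB9 from -0.78 to 0.04 and NLRC5 from -0.44 to 0.54, with the extremes where an EED-knockout library was left out. DESeq2 called 26 genes higher and 42 lower, 68 in all, where edgeR called 0; the cause was not tested. Leaving out 1 library at a time gave 0 to 49 genes higher, 0 to 54 lower and 0 to 95 in either direction: 92 without EED-knockout library 1, 95 without EED-knockout library 2, 4 without wild type library 2 and 0 without wild type library 1. The lone library of a genotype was then assumed to vary like the pair of the other. The median log2 fold change of the 9 genes was -0.13 on log2(TPM + 1) and on log2(TPM + 0.1) and -0.05 with arm medians taken off; with 1 library left out it ran from -0.73 without EED-knockout library 2 to -0.20 without EED-knockout library 1. With the replicate block, 0 genes were called in either direction and the median was -0.25. The replicate numbers mark no stated pairing, and the differences between libraries 1 and 2 correlated at -0.245 across 10899 genes; crossed pairs, added after the data were seen, also gave 0 calls. With 2 libraries a genotype, the intervals of HLA-F, TAP1 and NLRC5 span more than 0.7 on either side, so smaller differences could not be seen.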
